A study of Mus musculus with 10 samples.

Results

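Collagen is folded in the endoplasmic reticulum by a group of enzymes and chaperones, and the 8 genes described here encode part of it. They are the prolyl 3-hydroxylase family (P3h1, P3h2, P3h3 and its non-catalytic relative P3h4), their partners Crtap and Ppib, and the collagen chaperones Fkbp10 and Serpinh1. They were taken by name from the 32285 genes of the count table, all 8 were found by Ensembl identifier, and all 8 were among the 16017 genes that passed the filter on low counts. RNA came from the Achilles tendon of mice given tamoxifen at 20 mg/kg at 6 weeks of age and sampled 4 weeks later, in all groups alike. The protein product of Mkx is Mohawk, a transcription factor with a homeobox that tendon cells express. The knockout carried Mkx-CreER, a tamoxifen-activated Cre recombinase, with a floxed Mkx allele (Mkx-CreER/flox, n = 3 libraries, numbered 1, 4 and 5). One control genotype carried Mkx-CreER alone (Mkx-CreER/+, n = 3, numbered 1, 2 and 4), and the other the floxed allele alone (Mkx flox/+, n = 4). The series text names the floxed control without a copy number, and the sources used here do not give whether Mkx-CreER disrupts its own allele. The labels do not say that each library came from a separate mouse, so the p-values measure the spread between libraries.

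Newly made procollagen chains are hydroxylated on prolines and lysines before they wind into a triple helix. The 3-hydroxylation of proline is rare and site-specific, unlike the abundant 4-hydroxylation, and in type I collagen it is made by a complex of P3H1, CRTAP and cyclophilin B, the product of Ppib. In humans, loss of CRTAP, P3H1, PPIB, FKBP10 or SERPINH1 causes recessive forms of osteogenesis imperfecta, a brittle-bone disease. Type I collagen is the main collagen of tendon, and the demand on this machinery was not measured here.

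The 8 genes lay on 6 chromosomes (mm10, GENCODE vM21). P3h1 (ENSMUSG00000028641) lay on chromosome 4 from 119232915 to 119248975 on the plus strand. P3h2 (ENSMUSG00000038168) lay on chromosome 16 from 25959288 to 26105784 on the minus strand. P3h3 (ENSMUSG00000023191) lay on chromosome 6 from 124841089 to 124857752, also on the minus strand. Crtap (ENSMUSG00000032431, 114375134 to 114390675, minus strand) and Ppib (ENSMUSG00000032383, 66060222 to 66066623, plus strand) were both on chromosome 9, far apart. P3h4 (ENSMUSG00000006931, 100408456 to 100414836, minus strand) and Fkbp10 (ENSMUSG00000001555, 100415697 to 100424824, plus strand) stood head to head on chromosome 11, with 860 bp between their starts. Serpinh1 (ENSMUSG00000070436) lay on chromosome 7 from 99345376 to 99353239 on the minus strand. Exons of another gene on the opposite strand covered 28.4% of the P3h2 exon length (Gm4524), 24.96% of that of Ppib (Snx22) and 6.58% of that of Fkbp10 (Nt5c3b). The sources used here do not give whether counting used strand, so reads of such pairs cannot be told apart, and the P3h2 and Ppib values are uncertain to that extent.

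RefSeq (GRCm38.p6) gave the bases before the transcript start for 5 of the 8 genes, namely P3h1, P3h3, Crtap, Ppib and Serpinh1. The 250 bases before the start of 3 of them are printed, 5′ to 3′ on the gene's own strand, for the member with the lowest adjusted p (Crtap), the most abundant member (Serpinh1) and the member with the smallest fold change against both controls (Ppib). Capitals mark CCACG and CCAAT on either strand, the paired letters of the element through which chaperone genes respond to endoplasmic reticulum stress. The Crtap window is chr9:114390713-114390962 (minus), that of Serpinh1 is chr7:99353240-99353489 (minus) and that of Ppib is chr9:66059919-66060168 (plus).
Crtap: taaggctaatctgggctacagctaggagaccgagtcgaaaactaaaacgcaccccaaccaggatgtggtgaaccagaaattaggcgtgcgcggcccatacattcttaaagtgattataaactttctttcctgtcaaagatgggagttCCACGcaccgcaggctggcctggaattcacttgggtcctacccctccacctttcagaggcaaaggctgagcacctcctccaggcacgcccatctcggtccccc
Serpinh1: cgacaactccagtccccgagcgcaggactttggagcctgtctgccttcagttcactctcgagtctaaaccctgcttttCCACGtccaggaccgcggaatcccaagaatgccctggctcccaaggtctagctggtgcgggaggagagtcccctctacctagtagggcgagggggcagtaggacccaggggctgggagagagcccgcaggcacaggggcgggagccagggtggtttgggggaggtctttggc
Ppib: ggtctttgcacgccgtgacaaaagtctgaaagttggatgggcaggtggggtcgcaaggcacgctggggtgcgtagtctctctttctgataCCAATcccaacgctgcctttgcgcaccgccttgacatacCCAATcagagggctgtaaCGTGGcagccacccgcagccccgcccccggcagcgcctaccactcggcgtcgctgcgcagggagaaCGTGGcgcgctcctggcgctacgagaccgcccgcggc
CCACG was present in 4 of the 5 windows (28.3% of 32817 such windows of all genes) and CCAAT in 2 (33.8%), with no position shared between these motifs. GGGCGG, the core of a GC box, was present in 3 (32.7%) and TATAAA in 1, that of Crtap (12.4%). TGACGTGG (0.564%), which itself ends in the reverse complement of CCACG, and GAANNTTC (6.69%) were in none. Both strands were searched. These matches describe the letters of the windows alone.

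Of the whole series, the depth lay between 8680934 and 22656417 counts per library, at which 3 counts equal 0.126 to 0.360 CPM (counts as a share of the TMM-scaled library size), a limit that covers counting error only. Mkx was lowest in the 3 Mkx-CreER/flox libraries (26.1 to 32.4 CPM), below the 91.4 to 93.8 CPM of Mkx-CreER/+ and the 120.9 to 187.4 CPM of Mkx flox/+. It fell by 2.04 on the log2 scale against both controls (SE 0.176, edgeR adjusted p = 0.000149). All 8 tendon fibroblast markers passed the filter on low counts. Their summed level was 23790 to 31210 CPM in Mkx-CreER/flox, 39790 to 51290 CPM in Mkx-CreER/+ and 62050 to 125400 CPM in Mkx flox/+. Col1a1 and Col1a2 made up much of that sum (means of 4086 and 9953 CPM in Mkx-CreER/flox, 24280 and 43410 CPM in Mkx flox/+). Against both controls 4 of the 8 were called lower and none higher, where 1.62% of all tested genes were called lower. Not called were Scx (log2 fold change -0.38, edgeR adjusted p = 0.52), Tnmd (-0.70, 0.228), Thbs4 (-0.52, 0.243) and Comp (-0.11, 0.893). The 20 skeletal muscle genes took 7.61% to 11.8% of counts in Mkx-CreER/flox, 3.18% to 8.14% in Mkx-CreER/+ and 1.67% to 5.21% in Mkx flox/+. Of these, 5 of 20 rose against both controls and none fell, where 3.03% of all tested genes were called higher. All 12 macrophage markers fell against both controls, where 1.62% of all tested genes were called lower. Their summed levels were 806 to 885 CPM in Mkx-CreER/flox, 1153 to 2825 CPM in Mkx-CreER/+ and 1723 to 2798 CPM in Mkx flox/+. Library Mkx-CreER/flox 1 stood apart, with the highest muscle share (11.8%) and the highest mitochondrial share (8.85%, against 1.92% to 5.32% in the other 9). The part of these cell types in the results below was not tested beyond the values given beside them.

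Per kilobase of exon, the 8 genes kept much of their order in every library. Length here is that of all annotated exons of a gene merged (3846 bp for P3h1, 1772 bp for Crtap, 3305 bp for Ppib). It can exceed the length of the transcripts present, which was not measured. Ranks and ratios between genes depend on this choice. Serpinh1 was first in all 10 libraries, with 97.3 ± 18.3 CPM per kb in Mkx-CreER/flox, 105 ± 6.86 in Mkx-CreER/+ and 156 ± 54.5 in Mkx flox/+ (SD, n = 3, 3 and 4). Crtap was second in all 10, at a median of 73.2 CPM per kb. Fkbp10 (median 36.6) and P3h2 (27.8) held ranks 3 and 4 in changing order. P3h4 (20.0) held rank 5 or 6. P3h3 (11.2), Ppib (11.1) and P3h1 (9.73 CPM per kb) shared the low ranks, and their ranges over the libraries overlapped. P3h1 thus measured 0.113 to 0.215 times its partner Crtap per kb of merged exon. Their proteins act in 1 complex, but this value is not a ratio of transcript numbers. The level of P3h4 per kb was 1.24 to 2.55 times that of its partner P3h3.

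The first comparison set Mkx-CreER/flox against both control genotypes with equal weight. The log2 fold changes of all 8 genes were negative, with a median of -0.60 against 0.02 over all genes tested, and they ran from -0.91 to -0.29. Crtap passed the test (edgeR quasi-likelihood, Benjamini-Hochberg adjusted p under 0.05), and the other 7 did not, at adjusted p of 0.065 to 0.509. That is 1 of 8, lower, where 4.65% of all tested genes were called, 3.03% higher and 1.62% lower, and 5 of 8 had an unadjusted p under 0.05, where 20.7% of all genes did in either direction. In bulk tissue, fewer cells of a type and less RNA per cell cannot be told apart. The muscle, macrophage and tendon marker levels above differ between the same groups, and their part was not tested except by the muscle covariate named below.

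**Figure D1:**
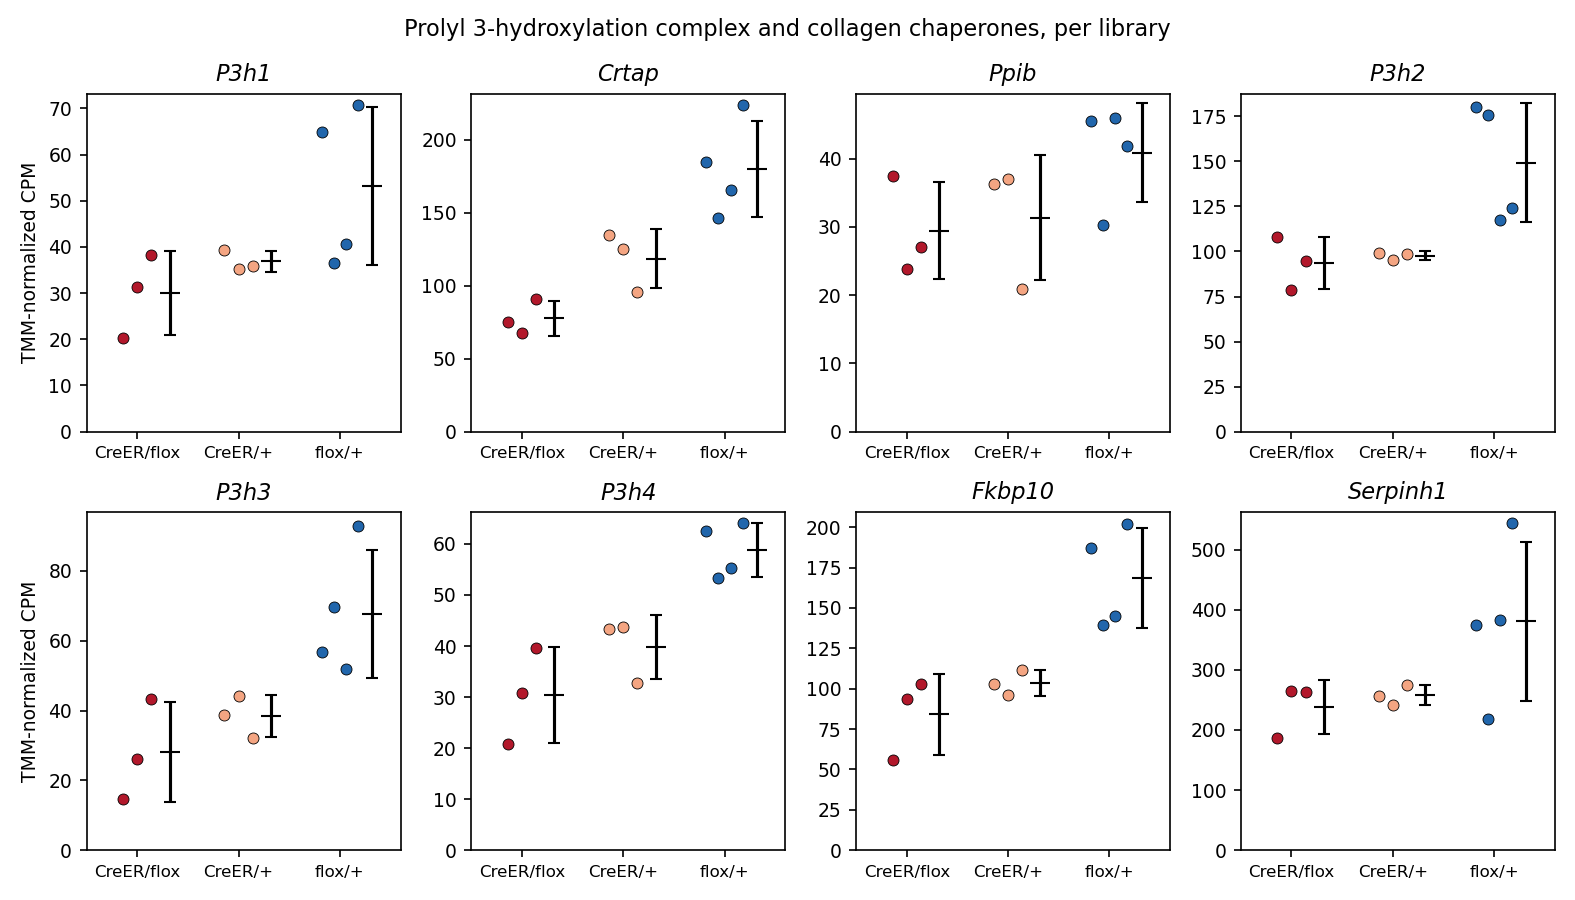
Level of each of the 8 genes in each library (TMM-normalized CPM, linear axis from 0), with Mkx-CreER/flox (n = 3), Mkx-CreER/+ (n = 3) and Mkx flox/+ (n = 4) from left to right. Points are libraries, and the bar beside them is the mean ± SD. For Crtap the knockout libraries (67.3 to 90.7 CPM) lie below all 7 controls (95.7 to 223.6 CPM), and for Ppib the groups overlap.

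Crtap, the cartilage-associated protein that holds P3H1 in its complex, had 74.9, 67.3 and 90.7 CPM in Mkx-CreER/flox, against 134.6, 124.9 and 95.7 CPM in Mkx-CreER/+ and 184.4, 146.4, 165.5 and 223.6 CPM in Mkx flox/+. Every knockout library lay below every control library, and every Mkx-CreER/+ library below every Mkx flox/+ library. Such a separation from both controls held for 3.12% of all tested genes, and Crtap was the only one of the 8 with it. It fell by 0.91 on the log2 scale against both controls (SE 0.181, edgeR adjusted p = 0.0216), to 53.2% of their level. Against the control libraries pooled, the exact permutation test gave two-sided p = 0.00833, the smallest that 3 of 10 libraries allow. Against Mkx flox/+ it fell by 1.21 (SE 0.197, edgeR adjusted p = 0.00475). Against Mkx-CreER/+ the difference was -0.61 (SE 0.204, edgeR adjusted p = 0.329). The call against both controls was lost without Mkx-CreER/+ 1 (edgeR adjusted p = 0.06), Mkx-CreER/+ 2 (0.0561) or Mkx-CreER/flox 4 (0.0744), and once the muscle score was a covariate (log2 fold change -1.01, adjusted p = 0.0597). The call against Mkx flox/+ held in all 21 alternatives. Without Mkx-CreER/flox 1, Crtap stood at -0.91 against both controls (adjusted p = 0.0438).

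P3h1, the catalytic subunit of that complex, had 20.4, 31.4 and 38.3 CPM in Mkx-CreER/flox, against 39.4, 35.3 and 36.0 CPM in Mkx-CreER/+ and 64.9, 36.6, 40.7 and 70.7 CPM in Mkx flox/+. The groups overlapped, and Mkx-CreER/flox 5 lay inside the range of the controls. Its fold change on the log2 scale was -0.56 against both controls (SE 0.237, edgeR adjusted p = 0.198) and -0.82 against Mkx flox/+ (SE 0.26, adjusted p = 0.0712). Without Mkx-CreER/flox 5 the difference from Mkx flox/+ passed the test (-1.05, adjusted p = 0.0356). Without Mkx-CreER/flox 1 the values were -0.37 against both controls (adjusted p = 0.504) and -0.63 against Mkx flox/+ (adjusted p = 0.184).

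Ppib, the third partner and a peptidyl-prolyl isomerase of the secretory pathway, had 37.5, 23.9 and 27.0 CPM in Mkx-CreER/flox, against 36.3, 37.0 and 20.9 CPM in Mkx-CreER/+ and 45.5, 30.3, 46.0 and 41.8 CPM in Mkx flox/+. All 3 groups overlapped. The log2 fold change of -0.29 against both controls (SE 0.22, edgeR adjusted p = 0.509) was the smallest of the 8, and no knockout library lay below the lowest control. Against Mkx flox/+ it was -0.48 (SE 0.242, adjusted p = 0.256). Without Mkx-CreER/flox 1, the library with the highest Ppib level of the knockouts, these were -0.52 (adjusted p = 0.293) and -0.71 (adjusted p = 0.125). Without Mkx-CreER/flox 4 they were -0.16 (adjusted p = 0.809) and -0.35 (adjusted p = 0.534). Per kb, Ppib measured 0.159 to 0.268 times Crtap in Mkx-CreER/flox, 0.117 to 0.159 times in Mkx-CreER/+ and 0.1 to 0.149 times in Mkx flox/+.

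P3h2, which 3-hydroxylates basement membrane collagen and some sites of fibrillar collagens, had 107.8, 78.6 and 94.5 CPM in Mkx-CreER/flox, against 99.3, 95.0 and 98.8 CPM in Mkx-CreER/+ and 180.2, 175.6, 117.6 and 123.9 CPM in Mkx flox/+. Both CreER genotypes lay below all 4 Mkx flox/+ libraries and overlapped each other closely. On the log2 scale the change was -0.37 against both controls (SE 0.174, edgeR adjusted p = 0.247), -0.67 against Mkx flox/+ (SE 0.192, adjusted p = 0.0469) and -0.06 against Mkx-CreER/+ (SE 0.202, adjusted p = 0.947). The call against Mkx flox/+ was lost without Mkx-CreER/flox 4 (-0.56, adjusted p = 0.18), Mkx-CreER/flox 5 (0.0623), Mkx flox/+ 1 (0.117), Mkx flox/+ 2 (0.114), Mkx-CreER/+ 1 (0.0613) or Mkx-CreER/+ 2 (0.0644), under RLE scaling (0.05) and with only the compared groups in the fit (0.0813). With the muscle score as a covariate it was -0.45 (adjusted p = 0.393), a move of over 1.5 times. Without Mkx-CreER/flox 1 it was -0.81 (adjusted p = 0.0367).

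P3h3, which forms a complex with P3h4 that supports lysine hydroxylation of collagen in mice, had 14.8, 26.1 and 43.4 CPM in Mkx-CreER/flox, against 38.7, 44.2 and 32.1 CPM in Mkx-CreER/+ and 56.6, 69.5, 51.8 and 92.9 CPM in Mkx flox/+. The knockout and Mkx-CreER/+ libraries overlapped, and both lay below all Mkx flox/+ libraries. The knockout libraries spread most for this gene, with a coefficient of variation of 51.4%. The log2 fold change was -0.86 against both controls (SE 0.284, edgeR adjusted p = 0.0996) and -1.26 against Mkx flox/+ (SE 0.31, adjusted p = 0.0264). The second call was lost without Mkx-CreER/flox 1 (-0.99, adjusted p = 0.0529), Mkx-CreER/flox 4 (0.0915), Mkx flox/+ 2 (0.0612) or Mkx flox/+ 4 (0.0542), and with the muscle covariate (-1.36, adjusted p = 0.103). Without Mkx-CreER/flox 5 the difference from both controls passed, at -1.32 (adjusted p = 0.014), and without Mkx-CreER/flox 1 it was -0.58 (adjusted p = 0.259).

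P3h4, the partner without catalytic activity, had 20.8, 30.7 and 39.6 CPM in Mkx-CreER/flox, against 43.3, 43.7 and 32.7 CPM in Mkx-CreER/+ and 62.6, 53.3, 55.3 and 64.0 CPM in Mkx flox/+. The Mkx flox/+ libraries agreed closely with each other and stood above the other 6. The log2 fold change was -0.67 against both controls (SE 0.197, edgeR adjusted p = 0.065) and -0.95 against Mkx flox/+ (SE 0.215, adjusted p = 0.0188). The second call was lost without Mkx-CreER/flox 4 (edgeR adjusted p = 0.0599), without Mkx flox/+ 1 (0.0527) and under the muscle covariate (-0.92, adjusted p = 0.121). The first difference passed without Mkx-CreER/+ 4 (-0.75, adjusted p = 0.0411) or Mkx-CreER/flox 5 (-0.92, adjusted p = 0.0217). Without Mkx-CreER/flox 1 the values were -0.48 (adjusted p = 0.181) and -0.76 (adjusted p = 0.039).

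Fkbp10, an isomerase needed for lysine hydroxylation at the cross-linking sites of type I collagen, had 55.7, 93.3 and 103.2 CPM in Mkx-CreER/flox, against 102.9, 95.9 and 111.6 CPM in Mkx-CreER/+ and 187.1, 139.4, 144.8 and 202.1 CPM in Mkx flox/+. Again the 4 Mkx flox/+ libraries stood above the other 6. The log2 fold change was -0.65 against both controls (SE 0.199, edgeR adjusted p = 0.0753) and -1.0 against Mkx flox/+ (SE 0.218, adjusted p = 0.0162). The second call held with each library left out in turn and was lost with the muscle covariate (-0.92, adjusted p = 0.121). Without Mkx-CreER/flox 5 the difference from both controls passed, at -0.84 (adjusted p = 0.0399), and without Mkx-CreER/flox 1 it was -0.45 (adjusted p = 0.215). Against its neighbour Fkbp10, P3h4 kept a ratio per kb of 0.488 ± 0.0391 in Mkx-CreER/flox, 0.525 ± 0.115 in Mkx-CreER/+ and 0.477 ± 0.045 in Mkx flox/+ (SD), values that overlap between the groups.

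Serpinh1 encodes Hsp47, the collagen-specific chaperone that binds the folded triple helix. It had 186.2, 264.3 and 262.8 CPM in Mkx-CreER/flox, against 256.7, 241.4 and 274.9 CPM in Mkx-CreER/+ and 374.9, 218.9, 383.4 and 544.7 CPM in Mkx flox/+. The groups overlapped, and Mkx flox/+ 2 lay inside the knockout range. The log2 fold change was -0.40 against both controls (SE 0.232, edgeR adjusted p = 0.359), -0.68 against Mkx flox/+ (SE 0.255, adjusted p = 0.124) and -0.12 against Mkx-CreER/+ (SE 0.269, adjusted p = 0.922). Without Mkx flox/+ 2 the difference from Mkx flox/+ passed (-0.87, adjusted p = 0.0437), and without Mkx-CreER/flox 1 it was -0.55 (adjusted p = 0.297).

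**Figure D2:**
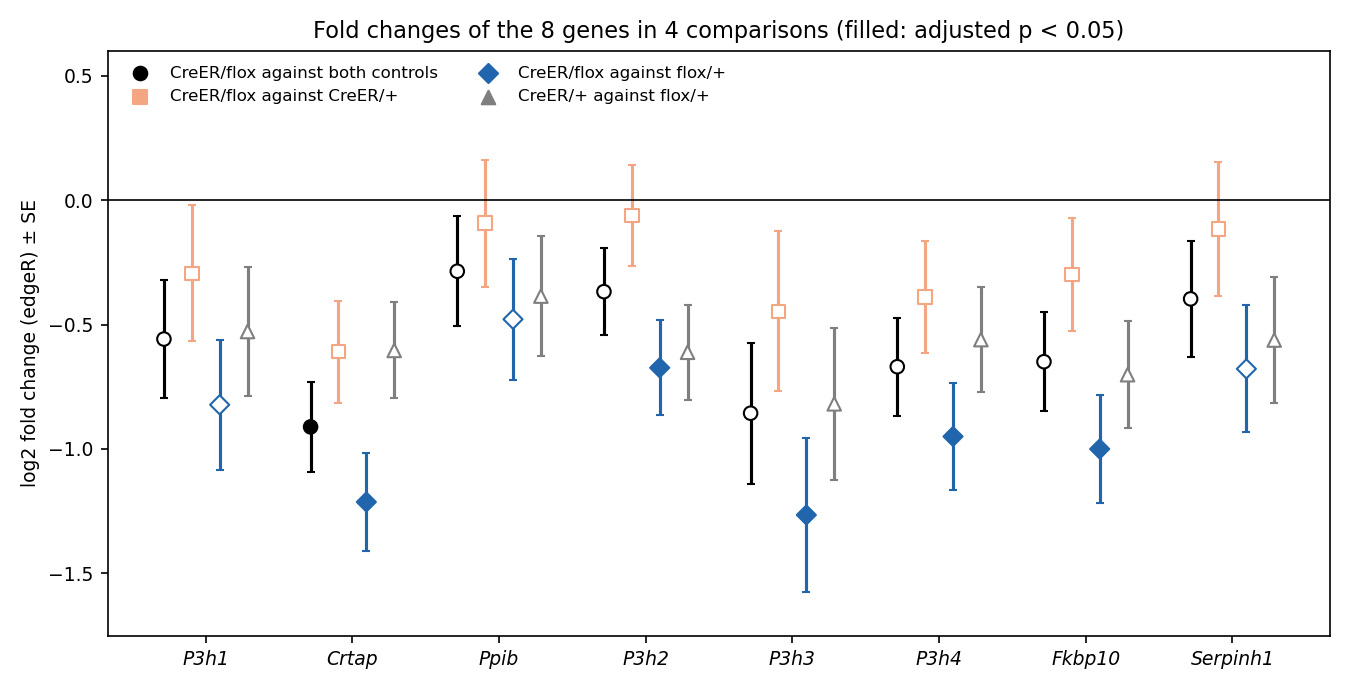
Log2 fold changes (edgeR, bars ± SE) of the 8 genes for Mkx-CreER/flox against both controls, against Mkx-CreER/+ and against Mkx flox/+, and for Mkx-CreER/+ against Mkx flox/+. Filled symbols passed the adjusted test. Every value is below 0. Those against Mkx flox/+ run from -1.26 to -0.48, and those against Mkx-CreER/+ from -0.61 to -0.06.

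The single-control comparisons share the knockout libraries, so their values are given side by side. Against Mkx flox/+, 5 of the 8 genes fell (P3h2, P3h3, P3h4, Crtap and Fkbp10), where 7.27% of all tested genes were called, 4.37% higher and 2.9% lower, and the median log2 fold change of the 8 was -0.89 against 0.01 over all genes. In 5 of 8 every knockout library lay below every Mkx flox/+ library, where 9.5% of all genes did so. Leaving out 1 library gave 2 to 5 calls, beside 455 to 1585 over all genes. There were 2 calls without Mkx-CreER/flox 4 (518 over all genes) and 3 without Mkx flox/+ 1 (455). With the muscle covariate 1 call was left, that of Crtap (123 over all genes). With Mkx-CreER/flox 1 also left out there were 2, Crtap and P3h3 (303 over all genes). Against Mkx-CreER/+, edgeR called 0 of 8 (0.00624% of all genes, which is Mkx alone). There 1 of 8 had an unadjusted p under 0.05 (Crtap), where 10.7% of all genes did. Limma voom, run with library quality weights, called 1 of 8 (4.46% of all genes) and DESeq2 0 (0.787%). The edgeR median was -0.30. Every knockout library lay below every Mkx-CreER/+ library for 1 of 8 genes, Crtap (6.14% of all genes). The smallest exact permutation p that 3 libraries against 3 allow is 0.1.

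The same 8 genes were compared between the controls. In Mkx-CreER/+ against Mkx flox/+ all 8 log2 fold changes were negative, from -0.82 (P3h3, SE 0.304) to -0.39 (Ppib, SE 0.241), with a median of -0.58 against 0.00 over all genes. No gene passed, for the 8 at edgeR adjusted p of 0.72 to 1.0 and over the whole table (0.0% of genes). DESeq2 (0.231% of all genes) and limma voom (0.0%) also called 0 of the 8. At an unadjusted p under 0.05 there were 6 of 8, where 4.98% of all genes passed that level. For 5 of 8, namely P3h2, P3h3, P3h4, Crtap and Fkbp10, every Mkx-CreER/+ library lay below every Mkx flox/+ library, where 3.89% of all genes did so. The mean level of each of the 8 was thus lowest in Mkx-CreER/flox, between in Mkx-CreER/+ and highest in Mkx flox/+. How many of all genes follow this order was not counted. For P3h2, Ppib and Serpinh1 the step between the CreER genotypes was within its SE. There Mkx-CreER/flox stood at 95.8%, 93.8% and 92.3% of Mkx-CreER/+ (SE of the log2 fold change 0.202, 0.256 and 0.269). As a share of Mkx flox/+, Crtap was at 43.1% in Mkx-CreER/flox and 65.8% in Mkx-CreER/+, P3h2 at 62.7% and 65.4%, and Serpinh1 at 62.5% and 67.7% in the same genotypes. Mkx followed the same order of genotypes, and its difference between the controls was -0.78 (SE 0.176, edgeR adjusted p = 0.489).

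Exact permutation tests on log2(CPM + 1), which use the libraries alone, set the knockout against the 7 control libraries pooled. Mkx flox/+ (n = 4) thus weighs more than Mkx-CreER/+ (n = 3), unlike the equal weight in edgeR. A two-sided p under 0.05 was found for 4 of the 8 genes, where 17.3% of all tested genes had one in either direction. These were Crtap (0.00833), P3h4 (0.0167), P3h3 (0.0417) and Fkbp10 (0.0417), and the exact permutation p of the other 4 ran from 0.0833 (P3h1) to 0.308 (Ppib). Without Mkx-CreER/flox 1, the exact permutation p was 0.0278 for Crtap, the smallest that 2 of 9 libraries allow, 0.167 for P3h3, 0.0833 for P3h4 and 0.194 for Fkbp10. Without Mkx-CreER/flox 4 it was 0.111 for P3h3, 0.0556 for P3h4 and 0.111 for Fkbp10. For P3h3 it also rose above 0.05 without Mkx-CreER/+ 2 (0.0595) or Mkx flox/+ 1 (0.0714). For Fkbp10 the same held without Mkx-CreER/flox 5 (0.0556), Mkx-CreER/+ 4, Mkx flox/+ 2 or Mkx flox/+ 3 (0.0595 each).

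The level of the folding machinery was also set against type I collagen, the main product it folds. Col1a1 and Col1a2, the chains of type I collagen, fell by 1.74 (SE 0.357, edgeR adjusted p = 0.0224) and 1.48 (SE 0.331, adjusted p = 0.0282) on the log2 scale against both controls. Those are larger falls than that of any of the 8 genes. Serpinh1 had 17.1 ± 4.27 counts per 1000 type I collagen counts in Mkx-CreER/flox, where Mkx-CreER/+ had 10.4 ± 1.997 and Mkx flox/+ had 6.30 ± 3.36 (SD, n = 3, 3 and 4). P3h2 had 6.64 ± 0.533, 3.95 ± 0.672 and 2.48 ± 0.924 in the same order, and Crtap 5.54 ± 0.807, 4.74 ± 0.849 and 2.98 ± 1.24. All 8 ratios had a higher mean log2 value in Mkx-CreER/flox than in the 7 controls, by 0.57 (P3h3) to 1.29 (Ppib). The exact permutation p was 0.0167 for P3h2, 0.025 for Ppib, 0.025 for Serpinh1 and 0.0417 for P3h1, and 0.05 to 0.208 for the other 4. All knockout libraries lay above all controls for P3h2, Ppib and Serpinh1, which is 3 of 8, where 55.0% of all tested genes did so relative to the same denominator. An exact permutation p under 0.05 for this ratio was found for 4 of 8, where 67.8% of the 15447 tested genes with counts in every library had one.

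These ratios depended on the denominator, and their p-values, with the size for P3h3, on single libraries. Without any 1 Mkx-CreER/flox library, the log2 difference was 1.14 to 1.25 for P3h2 and 1.16 to 1.37 for Ppib. For Serpinh1 it was 1.04 to 1.41. With a knockout library left out, the smallest exact permutation p possible is 0.0278, so p can rise where the difference does not change. For P3h2, Ppib and Serpinh1 the exact permutation p was 0.0556 to 0.0833 without any 1 of the Mkx-CreER/flox libraries, and for Serpinh1 it was 0.0595 without Mkx flox/+ 4. For P3h1 it was 0.139 without Mkx-CreER/flox 4 or 5, 0.0595 without Mkx-CreER/+ 1 and 0.0595 to 0.0833 without any 1 of the Mkx flox/+ libraries. The ratio of Crtap was higher with p = 0.0238 (exact permutation) without Mkx-CreER/+ 2. That of P3h3 differed by 0.19 without Mkx-CreER/flox 5 (exact permutation p = 0.639) and by 1.02 without Mkx-CreER/flox 1 (exact permutation p = 0.0556). For Fkbp10 the ratio had an exact permutation p of 0.0278 without Mkx-CreER/flox 1 and 0.0476 without Mkx-CreER/+ 2 or 4. Set against Col3a1, the chain of type III collagen, all 8 differences were negative, from -0.99 (P3h3) to -0.27 (Ppib). That of Crtap (-0.91) was the only 1 of 8 with an exact permutation p under 0.05 (0.025). How many of all tested genes had such values relative to Col3a1 was not counted. Col3a1 itself measured 3022 ± 307 CPM in Mkx-CreER/flox, 2913 ± 835 in Mkx-CreER/+ and 3511 ± 1421 in Mkx flox/+ (SD), with a log2 fold change of -0.08 against both controls (SE 0.286, edgeR adjusted p = 0.911).

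**Figure D3:**
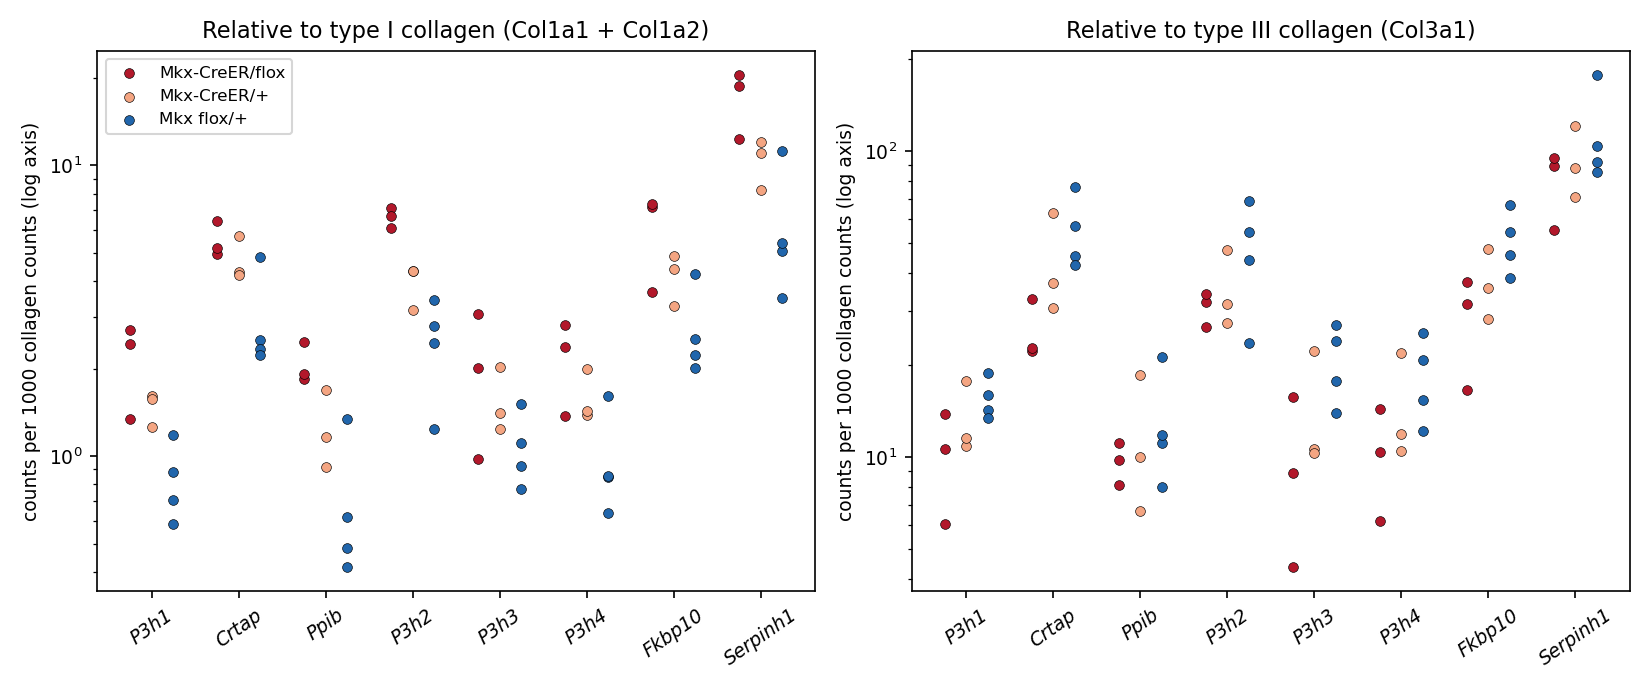
Counts of each of the 8 genes per 1000 counts of type I collagen (Col1a1 and Col1a2 together, left) and of type III collagen (Col3a1, right), on log axes. Each point is a library, with Mkx-CreER/flox, Mkx-CreER/+ and Mkx flox/+ from left to right for each gene. For Serpinh1 the knockout libraries have 12.3 to 20.4 counts per 1000 type I collagen counts, above the 3.50 to 12.1 of the controls, while against Col3a1 the mean log2 ratio of all 8 genes was lower in the knockout.

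Other genes of the collagen pathway were taken from lists of their roles. Over all tested genes, 1.62% were called lower against both controls and 3.03% higher. Of 9 prolyl 4-hydroxylase, lysyl hydroxylase and collagen galactosyltransferase genes, 2 fell against both controls and none rose, with a median log2 fold change of -0.33. P4ha1, a catalytic subunit of prolyl 4-hydroxylase, measured 199 ± 20.4 CPM in Mkx-CreER/flox, 311 ± 29.4 in Mkx-CreER/+ and 564 ± 224 in Mkx flox/+ (log2 fold change -1.07, SE 0.259, edgeR adjusted p = 0.0334). Plod3, a lysyl hydroxylase that also adds sugars, measured 59.1 ± 18.4, 85.2 ± 6.48 and 106 ± 6.16 CPM in the same order (-0.68, SE 0.183, adjusted p = 0.0472). Of 6 other prolyl isomerases of the endoplasmic reticulum, 1 fell and all 6 values were negative, with a median of -0.46. This was Fkbp9, at 378 ± 30.3 CPM in Mkx-CreER/flox, 628 ± 133 in Mkx-CreER/+ and 975 ± 205 in Mkx flox/+ (-1.05, SE 0.209, edgeR adjusted p = 0.0217).

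Of 14 general chaperones and folding enzymes of the endoplasmic reticulum, which serve secreted proteins of all kinds, none passed in edgeR against both controls and none against Mkx flox/+. Their median log2 fold change was 0.03 against both controls, with 6 of 14 negative. The genes with the smallest p were Dnajb9 (0.54, SE 0.363, edgeR adjusted p = 0.445) and Pdia4 (-0.24, SE 0.164, adjusted p = 0.445). Of the 3 KDEL receptors, which return chaperones from the Golgi, none passed against both controls, and all 3 values were negative. Kdelr1 was at -0.56 (SE 0.194, edgeR adjusted p = 0.111) and Kdelr3 at -0.62 (SE 0.264, adjusted p = 0.201). Against Mkx flox/+ 1 of the 3 fell, Kdelr1 (-0.76, SE 0.212, edgeR adjusted p = 0.0439), where 2.9% of all tested genes were called lower. Of 11 collagen chain genes, 3 fell against both controls, where 1.62% of all tested genes did. These were Col1a1, Col1a2 and Col11a2 (-1.73, SE 0.365, edgeR adjusted p = 0.0268), a chain of type XI collagen. The median over the 11 was -0.06.

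**Figure D4:**
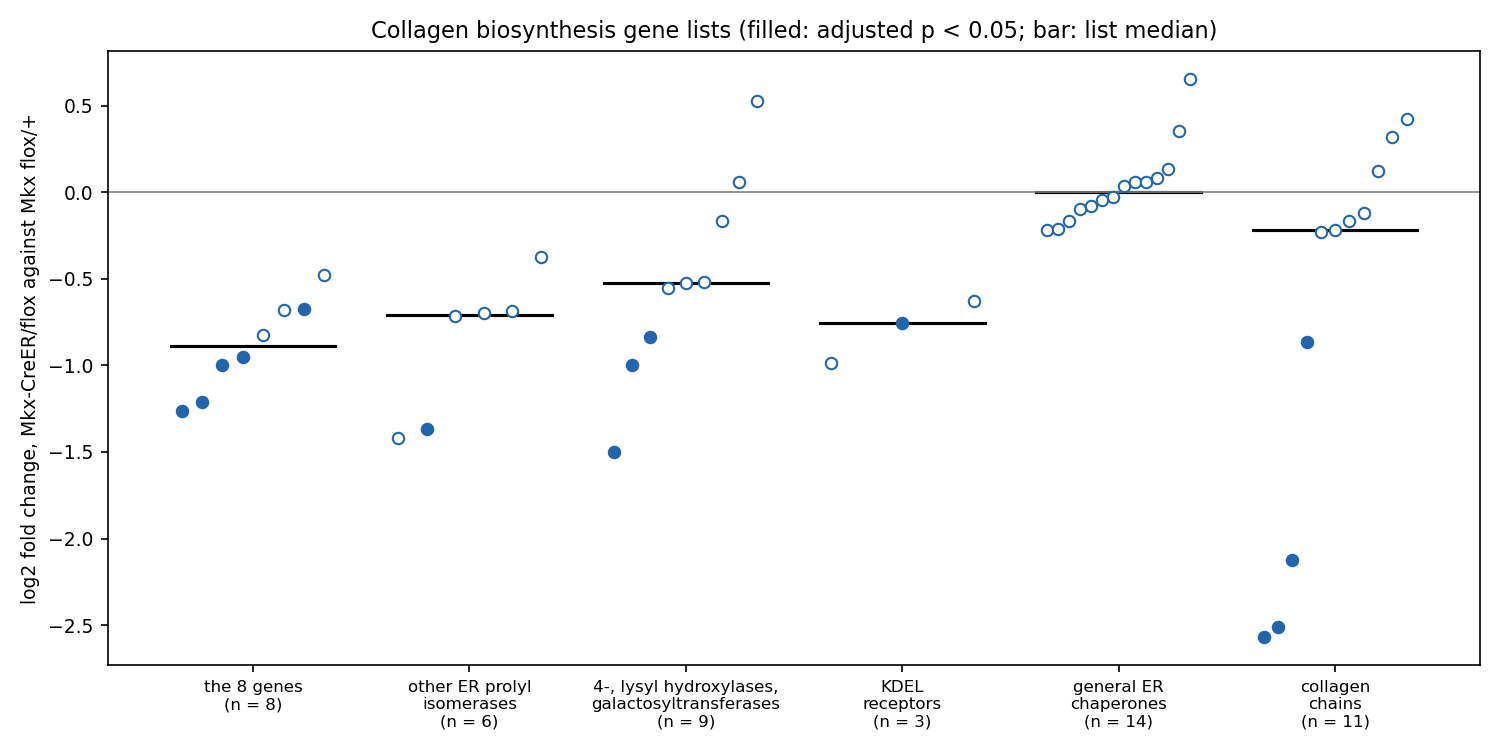
Log2 fold changes of Mkx-CreER/flox against Mkx flox/+ (edgeR) for the 8 genes and for the lists of other collagen pathway genes, 1 point per gene, with the list median as a bar. Filled points passed the adjusted test. The median is -0.89 for the 8 genes, -0.71 for the other prolyl isomerases, -0.76 for the KDEL receptors, -0.52 for the 4-hydroxylases with lysyl hydroxylases and galactosyltransferases, 0.00 for the general chaperones and -0.22 for the collagen chains.

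Over the 10 libraries most of the 8 genes moved together, as a description that also holds the differences between genotypes and shares the library scaling. The correlation of a gene's log2 CPM with the mean of the other 7 was 0.958 for P3h4, 0.945 for Crtap, 0.939 for Fkbp10, 0.904 for P3h1, 0.888 for P3h3 and 0.768 for Serpinh1. It was lower for P3h2 (0.596) and Ppib (0.507). Their exons overlap those of other genes most, and whether that bears on these correlations was not tested. Among pairs, the partners P3h3 and P3h4 were the closest (0.956), and P3h2 with Serpinh1 the least close (0.253). The neighbours P3h4 and Fkbp10 stood at 0.934, and the partners P3h1 and Crtap at 0.833. The mean of the 8 genes, centred per gene, was lowest in Mkx-CreER/flox 1 (-0.72 on the log2 scale) and highest in Mkx flox/+ 4 (0.70). Mkx-CreER/flox 5 (-0.17) lay inside the range of Mkx-CreER/+ (-0.28 to -0.04).

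Among 9953 other genes whose average log2 CPM reached 3, those most like the mean of the 8 over the 10 libraries were Snhg18 (Pearson r = 0.986), Angptl2 (0.978), Myo7a (0.976), Gas2l1 (0.976) and Clec11a (0.971). Of these 5, Gas2l1 did not pass the test against both controls (log2 fold change -0.54, edgeR adjusted p = 0.119). The other 4 fell by 0.74 (Snhg18) to 0.95 (Myo7a), at edgeR adjusted p of 0.0289 to 0.0471, where 1.62% of all tested genes were called lower. All 5 were picked for likeness to a mean that itself differs between the genotypes in these same libraries. Their falls thus follow in part from the choice and are not a separate result.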

How the data were processed

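Reads were trimmed with fastp and aligned with STAR to mm10, per the submitters' processing notes. The sources used here do not give versions, the counter, its annotation, its strand setting or how multi-mapping reads were treated. The deposited values are raw counts for 32285 Ensembl genes. Symbols and positions were taken from GENCODE vM21 (32235 identifiers matched, 50 did not). Columns of Mkx flox/+ were assigned by genotype and number. Numbers of the other columns differ from the labels, so genotype alone assigned them. Library numbers are column numbers.

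edgeR 4.0.16 in R 4.3.3 was run on the counts (filterByExpr, TMM, robust quasi-likelihood, 1 fit of all 10 libraries, Benjamini-Hochberg over 16017 genes, called under 0.05). The standard error is the size of the log2 fold change over the square root of F. Exact permutation tests, two-sided, served for single values. Near-identical copies (at least 90% over 300 bp) were found for P3h2 (Gm4524, 1055 bp) and Ppib (Snx22, 330 bp). These are the overlapping exons of those genes. Pairs within a genotype differed by 23.6 to 119 times counting error (chi-square per degree of freedom), so each was counted as a library of its own. The script was tested on simulated data. The 8 genes and all lists were chosen with earlier results of these data known. Named genes were the 8, Mkx, the collagen denominators, up to 4 called genes of each pathway list by smallest p (or the 2 of smallest p), and the 5 genes most like the mean of the 8.

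Alternatives were DESeq2 1.42.0, limma voom with library quality weights and robust moderation (limma 3.58.1), and other scalings and filters. Values given for limma voom thus rest on libraries of unequal weight. Further alternatives were only the groups compared, removal of muscle, erythroid and mitochondrial genes, and the muscle score as a covariate. The rest were a replicate block, Col3a1 as denominator and each library left out. Added after the data were seen was the muscle covariate in the absence of library Mkx-CreER/flox 1. Markers of endothelial, mural, Schwann, adipocyte, epidermal, osteoblast, chondrocyte and erythroid cells were also measured. Against both controls, 1 of 8 endothelial, 2 of 7 mural and 1 of 7 Schwann cell markers rose, where 3.03% of all tested genes did. None of 5 adipocyte, 1 tested epidermal, 2 osteoblast, 3 chondrocyte and 5 erythroid markers passed in edgeR.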

Additional observations from a re-analysis of the deposited data

Results flagged for a closer look

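Of 16 groups of 4 libraries examined for a value far from the rest, 1 stood out, where chance gives about 1 in 20. In Mkx flox/+ 3, Crtap had 4.83 counts per 1000 type I collagen counts, the highest of the 4 Mkx flox/+ libraries. Each other gene of the set also had its highest such ratio of these 4 libraries in Mkx flox/+ 3. The denominator was at its lowest of the 4 there, with Col1a1 at 10600 CPM and Col1a2 at 23680 CPM. Crtap itself, at 165.5 CPM, lay inside the 146.4 to 223.6 CPM of Mkx flox/+. The high ratio was thus not particular to Crtap, and why type I collagen was low in that library was not tested.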

How the results depend on the processing

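All 8 log2 fold changes were negative in all 20 alternatives against both controls, in all 21 against Mkx flox/+ and in all 21 between the controls. Against both controls 1 of the 8 was called, beside 744 of all 16017 genes tested. The number called was 3 with no filter (888 of 24406 genes) and 4 with DESeq2 (1459 of 16017). It was 6 with limma voom and its library quality weights (2991 of 16017) and 0 with the muscle covariate (46 of 16017). With each library left out it was 0 to 4, beside 64 to 1114 over all genes. Against Mkx flox/+, where 5 were called beside 1165 of 16017 genes, the number was 1 with the muscle covariate (123 of 16017). It was 2 with that covariate and Mkx-CreER/flox 1 left out (303 of 16502 genes). With each library left out it was 2 to 5, beside 455 to 1585 over all genes. Against Mkx-CreER/+ it was 1 with limma voom (715 of 16017 genes) and 0 otherwise. Small differences from Mkx-CreER/+ reversed for P3h2 (0.0401 with the muscle covariate, and -0.196 to 0.0474 with each library left out, the highest when Mkx-CreER/flox 4 was dropped), Ppib (-0.338 to 0.0404 with each library left out, above 0 in the absence of Mkx-CreER/+ 1 or 2 or of Mkx-CreER/flox 4) and Serpinh1 (0.023 with limma voom, and -0.207 to 0.0125 with each library left out, above 0 in the absence of Mkx-CreER/flox 1). Ratios to Col3a1 reversed those to type I collagen, at -0.58 for P3h1, -0.37 for P3h2, -0.99 for P3h3, -0.72 for P3h4, -0.91 for Crtap, -0.27 for Ppib, -0.70 for Fkbp10 and -0.38 for Serpinh1. By arithmetic, the sign of a ratio reflects whether the gene or its denominator fell further, and both falls are given above. What caused any of these changes was not tested.

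Over all genes, the 744 calls against both controls became 1459 with DESeq2, 2991 with limma voom, 46 with the muscle covariate, 132 with that covariate and Mkx-CreER/flox 1 left out, and 64 to 1114 with each library left out. The 1165 calls against Mkx flox/+ became 1866, 2853, 123, 303 and 455 to 1585 in the same order. The 1 call against Mkx-CreER/+ became 126, 715, 0 to 117 with each library left out, 9 with no filter and 8 with the added covariate setting. Between the controls 0 calls became 37 with DESeq2 and 2 with the added setting.

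Libraries with the same column number did not pair (correlations of their deviations of -0.0621 to 0.138 over 7 pairs, against -0.188 to 0.215 for other pairs). Number 5 occurs only in Mkx-CreER/flox and number 3 only in Mkx flox/+. A block by number therefore takes libraries Mkx-CreER/flox 5 and Mkx flox/+ 3 out of the genotype differences. With the number as a replicate block, 1 member was called against both controls (P3h3, edgeR adjusted p = 0.0452, in place of Crtap, 0.0523) and 5 against Mkx flox/+. Those 5 were not the same genes, since P3h1 was gained (-1.28, adjusted p = 0.0328) and P3h2 lost (-0.75, adjusted p = 0.0836). Over all genes the block gave 119, 537 and, between the controls, 1.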
